A study of Mus musculus with 12 samples.

Results

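Cell cycle and proliferation genes were followed in mouse liver as a fixed list of 39 genes, taken by symbol from the 50559 genes of the deposited count tables. All 39 were found. The list holds 10 cyclins and cyclin-dependent kinases, 3 kinase inhibitors, 13 genes of DNA replication and its licensing, 9 genes of mitosis and 4 transcription factors. RNA-seq was run on whole liver of C57BL/6N mice in 4 groups of 3 libraries, 12 in all. The NCD group had normal chow for 12 weeks. The HFD group had, for the same 12 weeks, a high-fat diet with 60% of its energy from fat. The HFD+C1 and HFD+C2 groups had that diet and compound C1 or C2 at 5 mg/kg/day, injected into the peritoneum over 12 weeks. Both are named as CYP4A inhibitors in the title of the series, and CYP4A enzymes hydroxylate fatty acids. No age, sex or vehicle injection is given in the labels, and the replicates are titled as biological, without naming animals.

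A dividing cell passes from G1, where D-type cyclins activate Cdk4, into S phase, where the E2F factors have switched on the enzymes that license and copy DNA. Mitosis follows, driven by Cdk1 with B-type cyclins, and its genes are switched on later, largely by FOXM1 and B-MYB with the MuvB complex. Kinase inhibitors such as p21 and p27 hold the kinases back. Adult hepatocytes rest mostly outside this cycle and re-enter it after loss of liver tissue, so these genes are low in undisturbed liver.

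Promoters of 5 members are shown: Cdkn1a and Mki67, which the diet raised, and Ccnb2, Birc5 and Cdc20, which with Cdkn1a had the smallest p-values in the C2 comparison. Each is the 250 bases before a RefSeq start, read 5′ to 3′ on the gene's strand (build GRCm38.p6). Capitals mark letters searched on both strands. These were TTTGAA, the CHR element of mitotic promoters, and TTTAAA, a variant of it. The E2F-type letters were TTCGCGC in one form, TTGGCGC in another, or else TTCCCGC, and the CCAAT box was searched too. A match on the other strand reads as its reverse complement, such as ATTGG for CCAAT. The windows are chr17:29090729-29090978 for Cdkn1a on the plus strand, chr7:135716380-135716629 for Mki67 on the minus strand, chr9:70421555-70421804 for Ccnb2 on the minus strand, chr11:117848987-117849236 for Birc5 on the plus strand, and chr4:118437344-118437593 for Cdc20 on the minus strand.
Cdkn1a: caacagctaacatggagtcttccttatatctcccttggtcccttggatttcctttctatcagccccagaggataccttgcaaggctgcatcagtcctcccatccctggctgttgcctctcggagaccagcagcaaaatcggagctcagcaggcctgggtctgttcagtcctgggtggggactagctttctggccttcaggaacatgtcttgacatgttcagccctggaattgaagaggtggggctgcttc
Mki67: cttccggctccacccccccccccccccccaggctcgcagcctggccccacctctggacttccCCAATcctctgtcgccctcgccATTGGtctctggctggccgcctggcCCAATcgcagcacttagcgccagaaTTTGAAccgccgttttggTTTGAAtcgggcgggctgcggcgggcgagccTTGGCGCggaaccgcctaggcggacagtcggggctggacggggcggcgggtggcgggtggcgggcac
Ccnb2: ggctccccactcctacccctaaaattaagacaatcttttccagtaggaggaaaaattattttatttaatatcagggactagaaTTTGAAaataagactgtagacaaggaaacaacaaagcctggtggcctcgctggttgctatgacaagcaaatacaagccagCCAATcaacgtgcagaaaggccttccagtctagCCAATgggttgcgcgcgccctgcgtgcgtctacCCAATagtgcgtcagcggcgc
Birc5: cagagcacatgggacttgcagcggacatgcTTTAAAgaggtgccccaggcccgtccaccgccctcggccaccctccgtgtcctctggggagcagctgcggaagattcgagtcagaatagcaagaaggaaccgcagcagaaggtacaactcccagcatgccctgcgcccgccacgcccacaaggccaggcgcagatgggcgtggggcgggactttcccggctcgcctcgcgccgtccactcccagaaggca
Cdc20: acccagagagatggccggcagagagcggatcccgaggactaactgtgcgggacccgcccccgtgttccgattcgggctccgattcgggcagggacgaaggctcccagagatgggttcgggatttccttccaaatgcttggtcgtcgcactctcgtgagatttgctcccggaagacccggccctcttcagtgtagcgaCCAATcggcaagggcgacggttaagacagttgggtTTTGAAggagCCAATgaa

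The Mki67 window holds both kinds of letters, with CHR matches that begin 116 and 98 bases before the start and the E2F-type TTGGCGC 67 bases before it. Ccnb2 has 3 CCAAT matches and 1 CHR match, while Cdc20 has its CHR match 18 bases before the start between 2 CCAAT matches. Birc5 holds only the variant TTTAAA. None of these letters is in the Cdkn1a window, the upstream of its 2 RefSeq starts. The marked matches do not overlap one another. Across the 32 members with a RefSeq promoter, 14 of 35 windows (40%) held an E2F-type match, against 6.69% of the 32851 windows of the table. CCAAT was in 24 of 35 (68.6%) against 33.9%. The CHR element was in 7 of 35 (20%) against 16.0%, and TTTAAA in 6 of 35 (17.1%) against 12.1%. By role, E2F-type letters were in 7 of 13 replication windows and 1 of 8 mitosis windows. CCAAT was in 10 of 13 replication and 7 of 8 mitosis windows, and the CHR element in 1 of 13 and 3 of 8. These counts describe letters, not bound sites.

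Levels are in CPM, a gene's counts per 1000000 reads in genes, scaled by TMM across the 12 libraries. Depth was uneven: reads in genes went from 4281210 to 32124248, with NCD replicates 2 and 1 the lowest. The floor of 3 counts was worth 0.0997 to 0.633 CPM on this scale over the libraries and covers counting error only. In NCD replicate 1, 58.2% of reads were not counted in genes, being unmapped, mapped to several places, ambiguous or in no gene. The share was 47.1% in HFD+C2 replicate 1 and 27.3% to 40.7% in the other 10 libraries. Reads in no gene alone were 23.2% in NCD replicate 1, 10.9% in HFD+C2 replicate 1 and 4.30% to 10.4% in the others. In NCD replicate 1 the 8 hepatocyte markers summed to 29184 CPM and immunoglobulin kappa (Igk) stood at 415 CPM. The other 11 libraries held 71864 to 148769 CPM of hepatocyte markers, all 8 of which were expressed, and at most 58.4 CPM of Igk.

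Of the 39 members, 24 were above the floor in all 12 libraries. Aurkb, Bub1 and E2f7 were at or under the floor in at least 6 libraries. Per kilobase of exon, the mean level over the 12 libraries ran from 10.9 CPM per kilobase for Pcna, the clamp that holds DNA polymerase on its template, to 0.0163 for E2f7, a repressor of the E2F family. Below Pcna came Cdk4 at 6.54, Mcm7 at 4.57, Cdkn1a at 2.50, Cdkn1b at 2.04 and Ccnd1 at 1.80 CPM per kilobase. The median member stood at 0.517 on that scale. Mki67, the usual mark of cycling cells, stood far lower, at 0.300 CPM per kilobase. Counts were small for most members, with a median over the members of 56.3 reads a library.

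**Figure D1:**
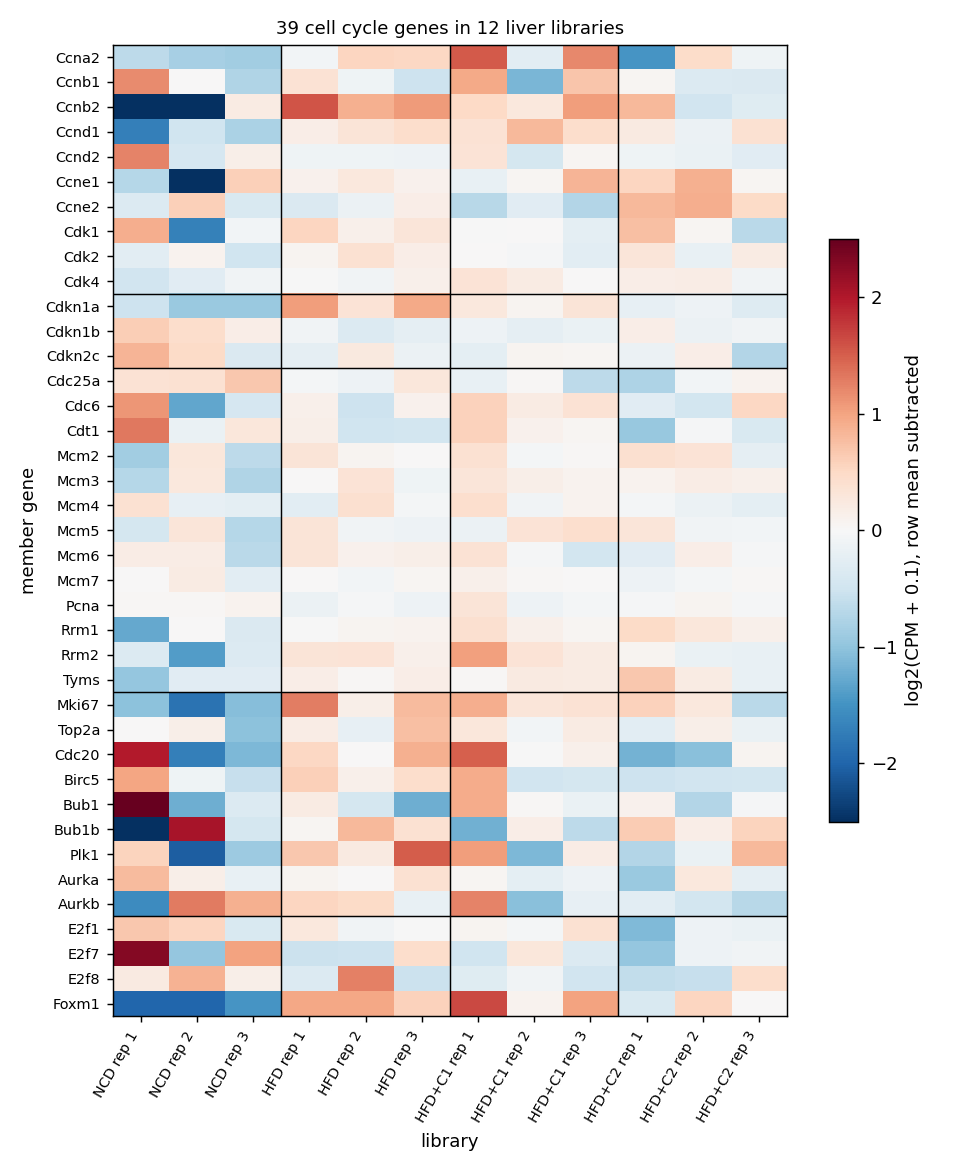
Level of each of the 39 members in the 12 libraries, as log2(CPM + 0.1) less the gene's mean over the libraries (red above, blue below, with colours saturating at the ends of the bar), in rows by role and columns by group. NCD replicate 1 has the highest level of its group in 20 of 39 genes and HFD+C1 replicate 1 in 25 of 39. The share over all genes was not computed. The deepest blue cells of Cdkn1a, Mki67, Ccnd1 and Foxm1 are those of NCD libraries.

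On the high-fat diet, 3 members rose: the kinase inhibitor Cdkn1a, the proliferation marker Mki67 and the G1 cyclin Ccnd1. With edgeR's quasi-likelihood test and an adjusted p under 0.05, these were 3 of the 32 members that had a mean of at least 10 counts, and 0 members fell. Over all genes tested, 6.03% were called, 2.59% higher and 3.44% lower, and 28.9% had an unadjusted p under 0.05 against 7 of the 32 members. DESeq2 also called 3 members. The log2 change was above 0 in 20 of the 32, with a median of 0.25 where the median of all genes was -0.02. Scaling by library totals alone moved the median of all genes to -0.24, and that of the members to 0.01, with 16 of 32 above 0. It also moved the calls over all genes from 359 of 836 higher to 241 of 1105. Whether a lower level means fewer cells of a type or less RNA per cell cannot be told apart in whole tissue.

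Cdkn1a encodes p21, which inhibits cyclin-dependent kinases and is a classic target of p53 (chr17:29090976-29100727, GRCm38). It stood at 5.61, 4.22 and 4.23 CPM in NCD replicates 1 to 3 and at 16.8, 10.3 and 15.7 CPM in HFD. The groups did not overlap, and the lowest HFD library was above the highest NCD library. The mean was 4.69 ± 0.80 CPM in NCD and 14.3 ± 3.47 CPM in HFD (SD, n = 3). On the log2 scale the change was 1.61 ± 0.26 (standard error; 95% interval 1.02 to 2.21, edgeR adjusted p = 0.0221). The other inhibitors had log2 changes below 0. Cdkn1b, which encodes p27, stood at 13.9, 12.4 and 10.2 CPM in NCD and at 8.61, 7.16 and 7.82 CPM in HFD. Its groups did not overlap either, with HFD the lower, but the log2 change of -0.61 missed the threshold (edgeR adjusted p = 0.102). Cdkn2c, which encodes p18, was at 0.67 to 2.21 CPM over the 12 libraries, with a diet log2 change of -0.43 (edgeR adjusted p = 0.597).

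Mki67 encodes the Ki-67 protein that coats mitotic chromosomes (chr7:135689784-135716361, GRCm38). Its counts were 14, 3 and 28 in NCD and 190, 79 and 109 in HFD, or 1.19, 0.63 and 1.15 CPM against 6.32, 2.80 and 4.44 CPM. All HFD libraries lay above all NCD libraries, and HFD replicate 2 was the lowest of its group, as it was for Cdkn1a. On the log2 scale Mki67 changed by 2.11 ± 0.42 (standard error; 95% interval 1.17 to 3.06, edgeR adjusted p = 0.0345). Of the 7 mitosis members tested, Mki67 was the 1 that passed, against 6.03% of all genes. The log2 change was above 0 in 4 of the 7, with a median of 0.17, against 48.5% and -0.02 over all genes. Cdc20, the activator of the anaphase-promoting complex, was at 3.91, 0.21 and 0.37 CPM in NCD and at 1.36, 0.92 and 1.79 CPM in HFD. NCD replicate 1 was thus above every HFD library and the other NCD libraries below them. Birc5 (survivin, of the chromosomal passenger complex) had a similar shape, with 3.74, 1.69 and 1.19 CPM in NCD and 2.83, 2.02 and 2.52 CPM in HFD. Bub1b, a spindle checkpoint kinase, had 0, 11 and 8 counts in NCD and 15, 26 and 16 in HFD. At this depth and this spread between NCD libraries, no diet change was detectable in these 3 genes. Their log2 changes were -0.18 ± 0.89, 0.17 ± 0.46 and -0.04 ± 1.20 (standard errors). Top2a, Plk1 and Aurka did not pass either, with log2 changes of 0.61, 1.55 and -0.14.

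Ccnd1 is the cyclin that activates Cdk4 in G1 (chr7:144929931-144939925, GRCm38). It was at 2.30, 5.48 and 4.48 CPM in NCD and at 8.74, 9.71 and 10.5 CPM in HFD. The groups did not overlap, and the HFD libraries were close to each other while the NCD libraries spread. On the log2 scale Ccnd1 changed by 1.29 ± 0.31 (standard error; 95% interval 0.58 to 2.00, edgeR adjusted p = 0.0485), just inside the threshold. The call was lost in 5 of the 10 other settings that kept every library, with adjusted p-values of 0.0510 to 0.0574 there. Its gene body overlaps the gene LTO1 on the other strand by 1771 bases, and strand use in the counting is not given. Cdk4 itself was at 15.1, 17.3 and 19.6 CPM in NCD and at 21.0, 19.8 and 22.9 CPM in HFD, without overlap but with a log2 change of only 0.31 (edgeR adjusted p = 0.290). Ccnb2, a B-type cyclin of mitosis, had 0, 0 and 17 counts in NCD and 59, 33 and 33 in HFD. All of its NCD reads came from replicate 3. Its groups did not overlap, and the log2 change of 2.25 ± 0.97 (standard error) missed the threshold (edgeR adjusted p = 0.169). That value was unsteady: it was 1.47 without NCD replicate 1, and a fitted 7.90 without NCD replicate 3, where NCD is at 0 and the fit is no measure of size. Of the other 5 tested cyclins and kinases, the log2 changes ran from -0.63 for Ccnd2 to 0.49 for Cdk2, and 0 of the 5 had an unadjusted p under 0.05.

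Of 12 replication members tested, 0 were called on the diet by edgeR, against 6.03% of all genes, and 2 had an unadjusted p under 0.05, against 28.9%. Tyms, which makes thymidylate for DNA, was at 5.19, 8.43 and 8.42 CPM in NCD and at 11.4, 10.5 and 11.6 CPM in HFD (log2 change 0.63, edgeR adjusted p = 0.130). Rrm2, the regulated subunit of ribonucleotide reductase, was at 1.87, 0.84 and 1.85 CPM in NCD and at 2.99, 3.05 and 2.61 CPM in HFD (log2 change 0.86, edgeR adjusted p = 0.164). Neither gene's groups overlapped. Rrm1, the partner of Rrm2, was at 3.66, 9.07 and 7.02 CPM in NCD and at 8.98, 9.39 and 9.61 CPM in HFD, overlapping. Pcna and Mcm7, among the 3 members of highest mean count, had log2 changes within 1 standard error of 0. Pcna was at 26.6, 26.8 and 27.9 CPM in NCD and at 23.5, 25.5 and 23.8 CPM in HFD, a log2 change of -0.15 ± 0.16 (standard error) that turned to 0.03 without the count minimum. Mcm7, a subunit of the replicative helicase, was at 20.3, 23.4 and 16.7 CPM in NCD and at 20.4, 19.4 and 20.9 CPM in HFD, a log2 change of 0.03 ± 0.19. Upper-quartile scaling turned the sign for Mcm7 to -0.05 and library totals alone to -0.20. The licensing factor Cdt1, at -0.92, was the lowest of the 12, and the other 5 helicase subunits ran from 0.06 to 0.57.

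The E2F factors had no detectable diet change: E2f1, an activator, had a log2 change of -0.24 ± 0.35 (standard error), and E2f8, a repressor, one of -0.02 ± 0.55. Foxm1, the activator of mitotic genes, did not reach the count minimum, with 0, 0 and 1 counts in NCD and 20, 19 and 12 in HFD. Pooled, these were 51 reads against 1, a ratio of 25.1 per TMM-scaled library size with a counting interval of 4.31 to 1012. That interval covers counting error only, not the spread between libraries. In a fit without the minimum the edgeR adjusted p of Foxm1 was 0.0516. The other 6 members under the minimum were Ccna2, Ccne2, Cdc6, Bub1, Aurkb and E2f7, and their adjusted p-values in that edgeR fit ran from 0.282 to 0.968. Groups did not overlap in 10 of the 32 tested members against 37.1% of all genes, 7 of them higher on the diet against 18.4% of all genes and 3 lower against 18.7%. The 3 lower were Cdkn1b, Pcna and Cdc25a, the phosphatase that activates Cdk2.

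**Figure D2:**
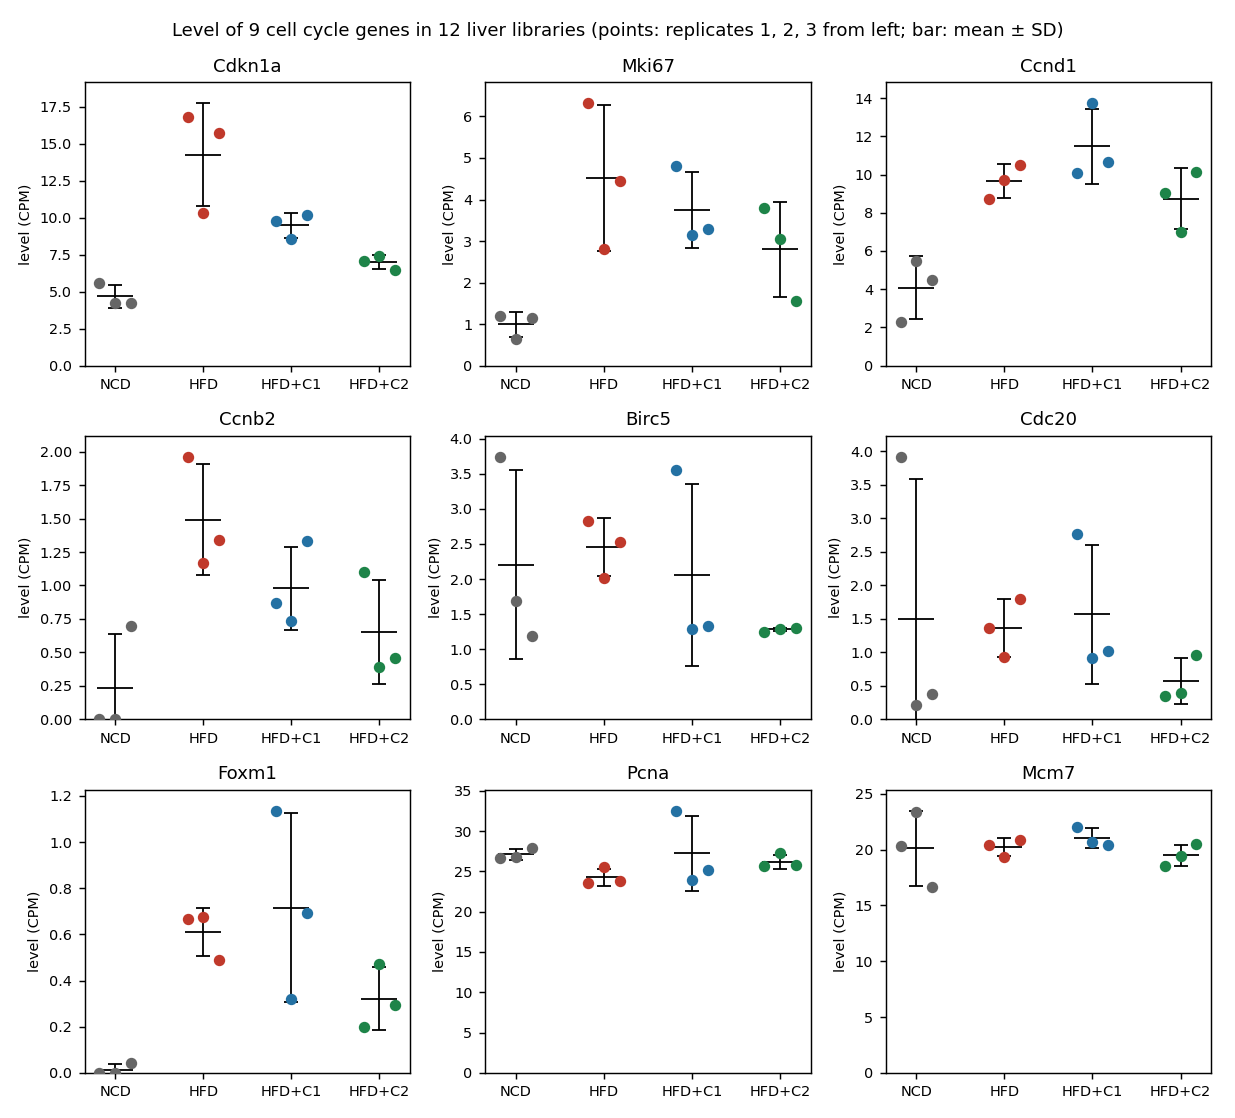
Level in CPM of 9 members in each library, with replicates 1, 2 and 3 from left to right in each group and a bar for mean ± SD (n = 3), on axes that start at 0. Cdkn1a, Mki67 and Ccnd1 are lowest in the 3 NCD libraries, Cdkn1a is lower in every compound library than in every HFD library, and NCD replicate 1 and HFD+C1 replicate 1 stand high for Birc5 and Cdc20.

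The 3 diet calls depended on which library was in the test. NCD replicate 1 was the library with the largest share of reads not counted in genes. Without it, Cdkn1a (log2 change 1.76), Mki67 (2.14) and Ccnd1 (1.01) had edgeR adjusted p-values of 0.000708, 0.00508 and 0.00994. In that test 5 members were called. Without HFD replicate 1 or HFD replicate 3, 0 members were called, although the log2 changes of the 3 genes stayed between 1.23 and 2.15. In those tests 23 and 25 genes were called in all, against 836 with every library. Without HFD replicate 2 only Cdkn1a was called. Without NCD replicate 3 only Ccnb2 was called, in a test against NCD libraries that both held 0 counts of it. Markers of other cells also differed with diet. The stellate cell collagens Col1a1 and Col3a1 rose by 2.58 and 1.19 on the log2 scale (edgeR adjusted p = 0.00927 and 0.0244). The endothelial marker Lyve1 rose by 2.20 and Igk fell by 5.21 (edgeR adjusted p = 0.0361 and 0.0329). Igk was at 415, 37.7 and 58.4 CPM in NCD and at 1.83, 7.48 and 4.40 CPM in HFD. NCD replicate 1 thus weighed most in the size of its fall. As whole lists, 2 of 6 stellate, 1 of 6 endothelial and 1 of 4 tested B and plasma cell markers were called, against 6.03% of all genes, and 0 of 8 macrophage, 0 of 8 hepatocyte, 0 of 6 erythroid and 0 of 4 cholangiocyte markers. Summed stellate markers spanned 72.9 to 99.7 CPM in NCD and 96.6 to 119 CPM in HFD, summed endothelial markers 67.0 to 86.4 and 70.7 to 92.7 CPM, and summed B and plasma cell markers 41.7 to 422 and 4.12 to 11.4 CPM, with Ighm and Igkc at 0 in every library. Summed hepatocyte markers, mostly Alb, spanned 29184 to 74779 CPM in NCD and 88170 to 105161 CPM in HFD, without overlap. Of the 8, Hnf4a and Ttr were higher and Tat lower at an unadjusted p under 0.05 in edgeR. Summed cholangiocyte markers, mostly Spp1, spanned 23.6 to 32.1 and 33.0 to 39.8 CPM, also without overlap. The part of these markers in the changes of the cell cycle genes was not tested.

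Among cell cycle genes outside the list, 1 of 39 replication genes, 1 of 42 mitosis genes and 0 of 30 regulators were called by the diet, against 6.03% of all genes. Of 39 other replication genes tested, 0 rose and Orc1, a subunit of the origin recognition complex, fell, from 52, 3 and 5 counts in NCD to 1, 1 and 0 in HFD. Its NCD reads came mostly from replicate 1. Pooled, 60 reads stood against 2, a ratio of 60.9 in favour of NCD with a counting interval of 16.1 to 514 (edgeR adjusted p = 0.0460). Without NCD replicate 1, 8 reads stood against 2, a ratio of 11.4 with a counting interval of 2.27 to 110. Orc1 was then under the count minimum. These intervals cover counting error only, not the spread between libraries. Of 42 other mitosis genes tested, Ube2c rose, from 0, 1 and 5 counts to 65, 42 and 28 (edgeR adjusted p = 0.0460). It encodes the ubiquitin-conjugating enzyme of the anaphase-promoting complex. Ube2c reached the count minimum only through the HFD libraries. With NCD near 0, its fitted log2 change of 3.49 is no firm measure of size. No HFD library overlapped the NCD libraries for Ube2c. Of 30 other regulators tested, 0 were called by edgeR and 6 had an unadjusted p under 0.05, where 28.9% of all genes had one. Ccnd3, another D-type cyclin, came closest at 0.88 (edgeR adjusted p = 0.0526), and the lowest p below 0 was that of Ccng2, a cyclin raised in resting cells, at -0.82 (edgeR adjusted p = 0.0798).

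Known p53 targets other than Cdkn1a were a further list. Ccng1, a cyclin-related target of p53, rose from 27.4, 22.8 and 25.6 CPM in NCD to 48.5, 42.1 and 54.5 CPM in HFD, which was 0.95 ± 0.18 on the log2 scale (standard error; edgeR adjusted p = 0.0305). It was the 1 of 22 tested that passed, against 6.03% of all genes. With 1 library left out, Ccng1 kept its call in 2 of 6 tests (without NCD replicate 1 or 2), Ube2c in 1 of 6 (without NCD replicate 1) and Orc1 in 2 of 5 (without NCD replicate 2 or 3). Of the 22, 15 had a log2 change above 0 and the median was 0.38. An unadjusted p under 0.05 was found for 7 of the 22, all higher on the diet, where 28.9% of all genes had one in either direction and 13% were higher.

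**Figure D3:**
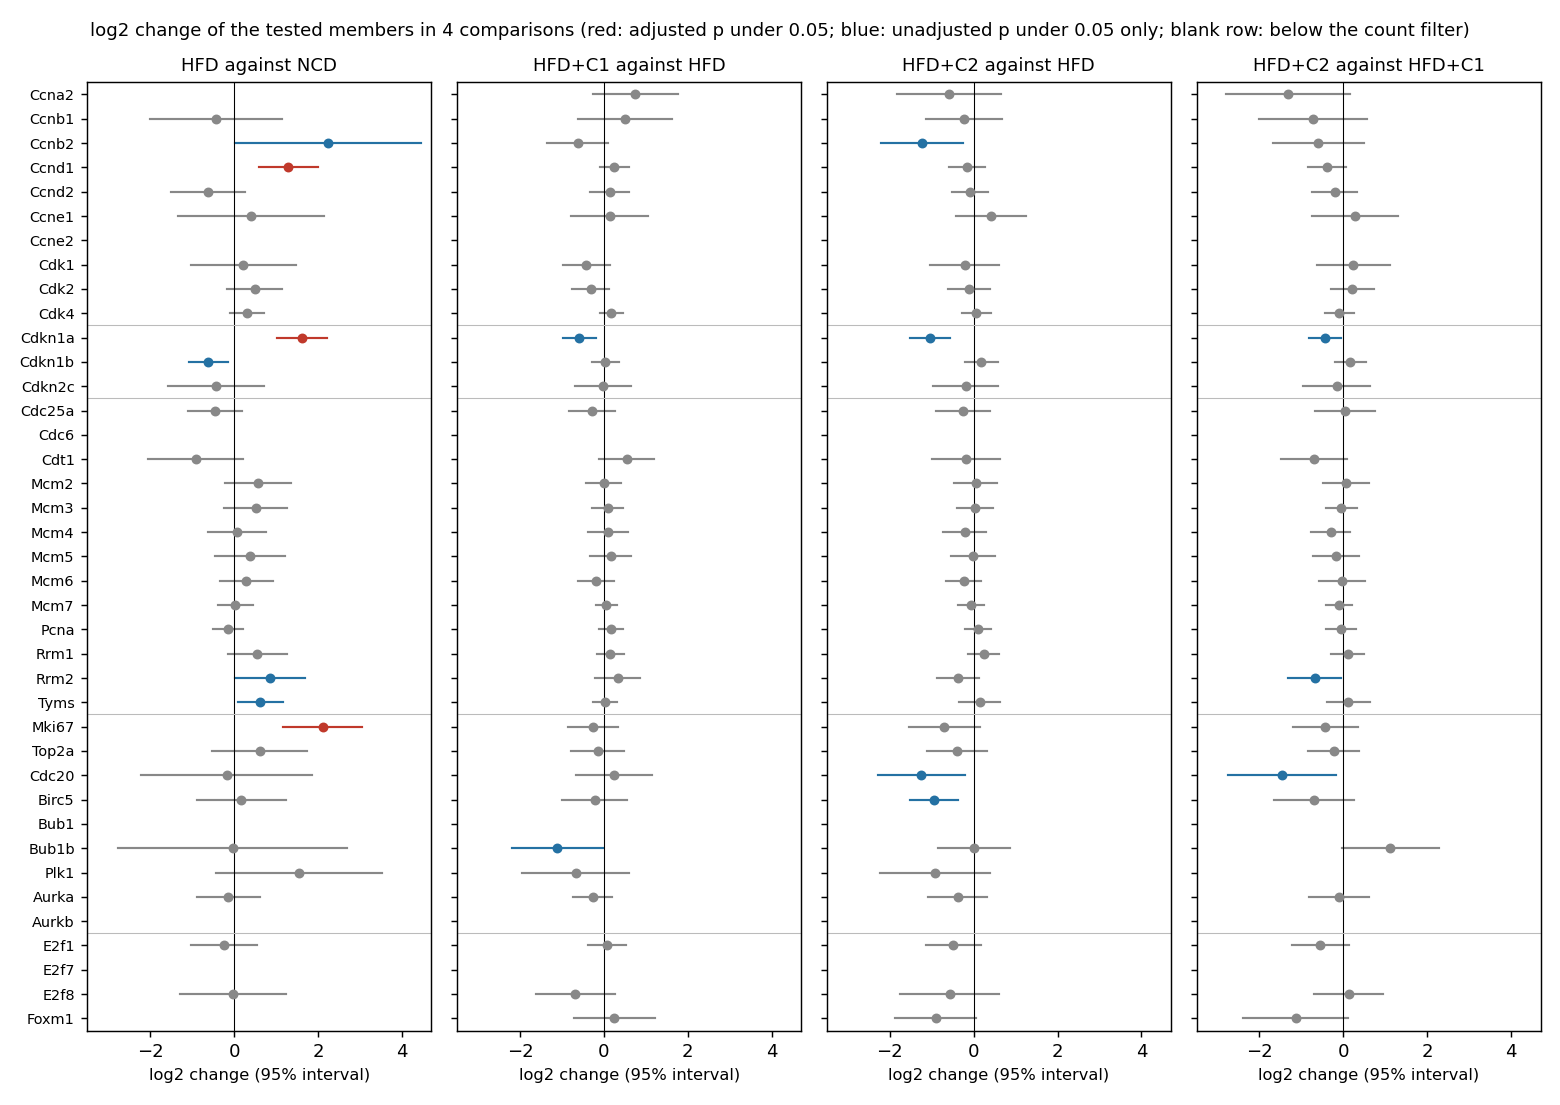
Log2 change of each tested member with its 95% interval in the 4 comparisons, red where the edgeR adjusted p was under 0.05, blue where only the unadjusted p was, and blank where the member had under 10 counts on average. The 3 red points, Cdkn1a, Mki67 and Ccnd1, are all in the diet comparison, and 25 of 34 points lie below 0 for HFD+C2 against HFD.

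Compound C1 was compared with the diet alone to see what it did in HFD-fed mice, and C2 likewise, and both comparisons use the same 3 HFD libraries. With C1, 0 of 34 tested members were called by edgeR against 0.0524% of all genes (7 genes, all lower), and 0 by DESeq2 or limma-trend. An unadjusted p under 0.05 was found for 2 members, Cdkn1a and Bub1b, both lower, against 7.75% of all genes, 3.26% higher and 4.48% lower. Cdkn1a was at 9.81, 8.56 and 10.2 CPM in HFD+C1, each below the lowest HFD library at 10.3 CPM. The change of -0.59 ± 0.18 on the log2 scale (standard error; 95% interval -0.98 to -0.20) did not pass (edgeR adjusted p = 0.402). It passed without HFD replicate 2, the lowest HFD library, at -0.78 (edgeR adjusted p = 0.0199), and without the count minimum (0.0429). Over all alternatives the adjusted p for Cdkn1a ran from 0.0199 to 1.00. Bub1b went from 15, 26 and 16 counts in HFD to 4, 12 and 5 in HFD+C1. The CPM of the groups overlapped, and its log2 change of -1.11 missed the threshold (edgeR adjusted p = 0.638).

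The other 2 members that the diet raised did not pass with C1 either. Mki67 was at 4.81, 3.16 and 3.30 CPM in HFD+C1, within the HFD range, with a log2 change of -0.26 (95% interval -0.87 to 0.35) that turned to 0.07 without HFD replicate 1. Ccnd1 was at 10.1, 13.7 and 10.6 CPM, a log2 change of 0.25 (edgeR adjusted p = 0.781). Over the 34 tested members, 19 had a log2 change above 0 and 15 below, with a median of 0.05 against 0.01 for all genes. Groups did not overlap for Cdk1, Cdk2 and Cdkn1a, all lower with C1, where 5.99% of all genes were lower and 6.36% higher without overlap. Pcna was at 32.5, 24.0 and 25.2 CPM, Cdk4 at 26.5, 24.2 and 21.2 CPM, Mcm7 at 22.0, 20.7 and 20.4 CPM, Tyms at 10.4, 12.0 and 11.9 CPM and Rrm1 at 11.9, 9.88 and 9.37 CPM. Each of these 5 overlapped HFD, and their log2 changes lay between 0.03 and 0.18.

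HFD+C1 replicate 1 had the highest level of its group in 25 of 39 members, among them 8 of the 9 mitosis and 10 of the 13 replication members. It was also highest in 23 of 42 other replication, 30 of 56 other mitosis, 10 of 33 other regulator and 8 of 24 other p53 target genes. HFD+C2 replicate 1 was highest of its group in 28 of 43 other replication and 28 of 56 other mitosis genes. The share over all genes was not computed, so these counts are not shown to be particular to the list. Summed mitosis members were 18.2 CPM in HFD+C1 replicate 1 and 10.3 and 11.3 CPM in the other HFD+C1 libraries. Cdc20 was at 2.77 against 0.92 and 1.01 CPM and Birc5 at 3.56 against 1.28 and 1.33 CPM. Markers of B and plasma cells other than Igk were also highest in HFD+C1 replicate 1, at 11.0 CPM, with 2.52 and 2.29 CPM in the others. Jchain was at 6.44 CPM against 1.01 and 0.53 CPM. Summed T and NK cell markers were 3.37 CPM there against 1.69 and 1.81 CPM, with Trac at 0. Summed erythroid markers were 303 CPM against 262 and 190 CPM. In HFD and HFD+C2 the library highest in the B and plasma cell markers without Igk was also highest in summed mitosis members. In NCD it was replicate 3, at 7.02 CPM, where summed mitosis members were lowest, at 7.15 CPM. The part of these markers in the level of the cell cycle genes was not tested. Of 8 macrophage markers, 0 were called with C1 by edgeR and 7 had an unadjusted p under 0.05, against 7.75% of all genes. Their sum spanned 241 to 317 CPM in HFD+C1 and 148 to 199 CPM in HFD, without overlap. These sums did not single out replicate 1, whose 280 CPM lay between the other two.

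With C2, 0 of 34 tested members were called by edgeR against 0.0222% of all genes (3 genes, all lower), with 0 by limma-trend and 1, Cdkn1a, by DESeq2. Unadjusted p-values under 0.05 were found for 4 members, Cdkn1a, Birc5, Ccnb2 and Cdc20, all lower, against 6.89% of all genes, 3.19% higher and 3.7% lower. The log2 change was below 0 in 25 of 34 and above 0 in 9, with a median of -0.21 where that of all genes was 0.02. By role the medians were -0.71 for 7 mitosis members, -0.57 for 3 transcription factors, -0.19 for 3 inhibitors, -0.15 for 9 cyclins and kinases and -0.04 for 12 replication members.

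Cdkn1a was at 7.06, 7.44 and 6.49 CPM in HFD+C2, and every one of these was below every HFD library and above every NCD library. The change was -1.04 ± 0.21 on the log2 scale (standard error; 95% interval -1.51 to -0.56), at an unadjusted p of 0.000769 in edgeR and an adjusted p of 0.625. DESeq2 gave -1.04 with an adjusted p of 0.0211, and edgeR without the count minimum gave -1.04 with an adjusted p of 0.00139. Without HFD+C2 replicate 1, the library with 47.1% of its reads not counted in genes, the change was also -1.04 (edgeR adjusted p = 0.107). Over all alternatives its adjusted p ran from 0.00139 to 0.998, and its log2 change was between -1.22 and -0.90.

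Birc5 was nearly level across HFD+C2 at 1.25, 1.29 and 1.30 CPM, below the 2.02 to 2.83 CPM of HFD, a log2 change of -0.95 ± 0.25 (standard error; edgeR adjusted p = 0.695). Ccnb2 was at 1.10, 0.39 and 0.46 CPM, all below HFD at 1.17 to 1.96 CPM, a log2 change of -1.24 ± 0.44. Cdc20 was at 0.35, 0.39 and 0.96 CPM against 0.92 to 1.79 CPM, overlapping, at -1.24 ± 0.46 on the log2 scale. Both had an edgeR adjusted p of 0.695 and few reads with C2, with counts of 22, 10 and 11 for Ccnb2 and of 7, 10 and 23 for Cdc20. Mki67 was at 3.80, 3.05 and 1.55 CPM, overlapping HFD, a log2 change of -0.71 (95% interval -1.55 to 0.14, edgeR adjusted p = 0.696). Ccnd1 was at 9.06, 7.01 and 10.1 CPM, a log2 change of -0.15 (edgeR adjusted p = 0.832), and overlapped HFD. Groups did not overlap in 8 of the 34 members. Lower with C2 were Birc5, Ccnb2, Cdkn1a, E2f1, Foxm1 and Rrm2, against 6.64% of all genes, and higher were Pcna and Rrm1, against 7.01%.

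Besides Cdkn1a, the members of highest mean count were the following. Pcna was at 25.6, 27.2 and 25.7 CPM, Cdk4 at 23.5, 23.9 and 19.8 CPM, Mcm7 at 18.6, 19.4 and 20.5 CPM, Tyms at 16.5, 11.7 and 9.05 CPM and Rrm1 at 12.6, 10.9 and 9.85 CPM. Their log2 changes lay between -0.06 and 0.24. Rrm2 was at 2.50, 2.11 and 2.09 CPM, below each HFD library, with a log2 change of -0.38 (edgeR adjusted p = 0.699). Cdkn1b was at 10.3, 8.26 and 8.55 CPM, a log2 change of 0.19. Macrophage markers summed to 427, 256 and 195 CPM with C2 and to 148 to 199 CPM in HFD, which overlapped. Of the 8 markers 0 were called by edgeR and 6 had an unadjusted p under 0.05, against 6.89% of all genes. Of 6 endothelial markers 0 were called and 2 had an unadjusted p under 0.05, both higher, and their sum was 111, 86.6 and 103 CPM with C2 and 70.7 to 92.7 CPM in HFD. The part of these markers in the mitosis levels was not tested. Of 41 other mitosis genes tested, 0 were called by edgeR and 8 had an unadjusted p under 0.05, all lower, where 3.7% of all genes were lower at that p. In 28 of the 41 the log2 change was below 0, with a median of -0.25, where 52.2% of all genes were above 0. Cdca3, a factor for mitotic entry, had the smallest p, with 1.50, 1.88 and 2.05 CPM against 3.66, 2.87 and 3.79 CPM in HFD (log2 change -0.93, standard error 0.24, edgeR adjusted p = 0.695). Summed over the 9 mitosis members, the level was 9.61, 11.3 and 9.51 CPM in HFD+C2 and 17.2, 11.9 and 17.6 CPM in HFD. The sum of all 56 other mitosis genes overlapped between the groups, at 247, 178 and 180 CPM in HFD+C2 and 218, 201 and 221 CPM in HFD, with replicate 1 of HFD+C2 the highest of the 6 libraries.

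**Figure D4:**
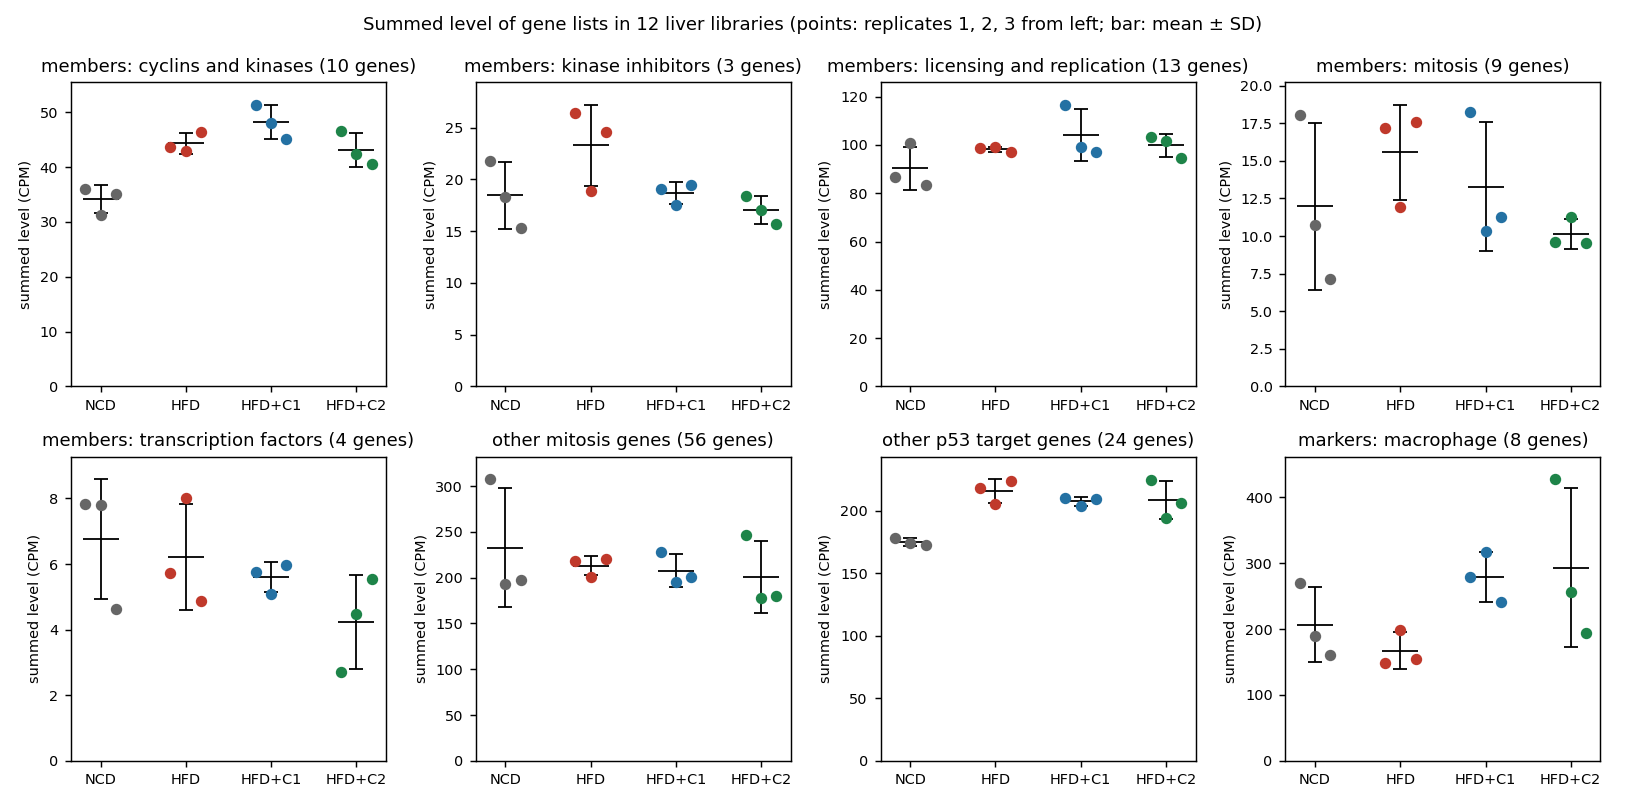
Summed level in CPM of the members of each role and of 3 further lists in each library, with replicates 1, 2 and 3 from left to right in each group and a bar for mean ± SD (n = 3), on axes that start at 0. Summed mitosis members lie at 9.51 to 11.3 CPM in HFD+C2 and 11.9 to 17.6 CPM in HFD, NCD replicate 1 and HFD+C1 replicate 1 stand above their groups for these genes, and summed macrophage markers are higher in the HFD+C1 libraries than in HFD.

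In the other lists the compounds gave no call by edgeR. For C1, 0 of 39 replication genes, 1 of 42 mitosis genes, 0 of 29 regulators and 3 of 23 p53 targets had an unadjusted p under 0.05, against 7.75% of all genes. For C2 the counts were 1 of 39, 8 of 41, 1 of 29 and 3 of 23, against 6.89%. Among the p53 targets, Plk3, a stress-responsive kinase, was at 12.5, 19.5 and 9.49 CPM in HFD. It was at 7.08, 2.84 and 8.94 CPM with C1, below every HFD library, and at 3.15, 9.79 and 3.81 CPM with C2, overlapping. Its log2 changes of -1.14 and -1.30 missed the threshold (edgeR adjusted p = 0.358 and 0.695). Ccng1 was at 45.1, 47.5 and 50.8 CPM with C1 and 51.5, 43.3 and 47.2 CPM with C2, which overlapped HFD. Mycn, a Myc-family transcription factor, was the regulator with the smallest p for C2, at 2.09, 1.59 and 1.47 CPM in HFD and 1.00, 0.70 and 0.84 CPM in HFD+C2 (log2 change -1.04, edgeR adjusted p = 0.695). For C1 the smallest p in each direction were those of Smc2 (0.52) and Tpx2 (-0.65) in mitosis, Rpa1 (0.27) and Gmnn (-0.31) in replication, and Tfdp2 (0.20) and Myc (-0.83) among regulators, on the log2 scale. In p53 targets, Bbc3, which promotes cell death, had 0.58 with C1 and the polymerase gene Polk 0.66 with C2.

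C1 and C2 were compared directly at the same labelled dose and time, as 1 pair of compounds. Of 33 tested members, 0 were called by edgeR, DESeq2 or limma-trend, against 0% of all genes in edgeR. In 23 of 33 the level was lower with C2, with a median log2 difference of -0.16 against 0.01 for all genes. Unadjusted p-values under 0.05 were found for Cdkn1a, Cdc20 and Rrm2, all lower with C2, against 4.6% of all genes (1.79% lower, 2.8% higher). The log2 difference of C2 less C1 was -0.44 for Cdkn1a (95% interval -0.81 to -0.07), -1.46 for Cdc20 (-2.74 to -0.18) and -0.69 for Rrm2 (-1.31 to -0.06), each with an edgeR adjusted p of 0.841. For Cdkn1a the groups did not overlap. Without HFD+C1 replicate 1, the library with high mitosis and replication levels, the differences were -0.41, -0.74 and -0.38, and 0 members had an unadjusted p under 0.05. For Mki67 the difference was -0.43 (95% interval -1.20 to 0.34) and for Ccnd1 -0.39 (-0.84 to 0.06), so that neither a large difference nor none is shown. For Pcna it was -0.06 (-0.42 to 0.30) and for Mcm7 -0.11 (-0.41 to 0.19). Groups did not overlap for Cdkn1a, Cdt1, E2f1 and Rrm2, lower with C2 against 6.09% of all genes, and for 0 members higher against 5.96%.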

How the data were processed

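RNA-seq of 12 libraries of mouse liver was analysed from 3 deposited tables of counts per gene symbol. Per the submitters' processing notes the tools named are Trimmomatic 0.39, STAR 2.7 and DESeq2, with the build mm10; their order and settings, the annotation and the use of strand are not given in the sources used here. The tables are called normalized, but the values the authors deposited are whole-number read counts with unequal totals, and the HFD columns are identical in the 3 tables (0 cells differ). The 4 rows that name no gene were left out of library sizes; they held 27.3% to 58.2% of a library's reads.

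Each comparison used its own 6 libraries. They were tested with edgeR 4.0.16 (quasi-likelihood F test, in R 4.3.3), with TMM scaling, genes of a mean of at least 10 counts, and Benjamini-Hochberg adjustment over all genes tested (13864, 13358, 13503 and 13229), two-sided, called at 0.05. Standard errors were taken from the change and its F statistic. P-values measure the spread between these libraries. The members and lists were chosen with earlier results of these data known. Members with a p under 0.05, adjusted or not, in any comparison and the 6 of highest mean count are given by library; from other lists, called genes or those of smallest p in each direction. Foxm1, Ccne2, Ccna2, E2f8, Bub1 and Phlda3 were also named after their values were seen. Coordinates and exon lengths come from GENCODE M21 (GRCm38), promoters from RefSeq. 9 members overlap another protein-coding gene, 7 of them on the other strand. Scripts were tested on simulated data. Alternatives were 10 other settings, among them DESeq2 1.42.0 and limma 3.58.1, and leaving out each library.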

Additional observations from a re-analysis of the deposited data

Results flagged for a closer look

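Ccna2, the cyclin of S phase, was under the count minimum of the diet comparison. It was flagged because its lowest HFD level, 0.432 CPM, lay above all 3 NCD libraries. Of all genes tested, 18.4% were higher in HFD without overlap. The counts of Ccna2 were 3, 1 and 5 in NCD and 13, 20 and 17 in HFD. In NCD replicate 2, 3 counts stood for 0.633 CPM, above that HFD level. Without the minimum the log2 change of Ccna2 was 1.62 (edgeR adjusted p = 0.388).

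Foxm1 was likewise left out of that comparison, and was flagged because its lowest HFD level, 0.489 CPM, lay above all NCD libraries. That level was also under the 0.633 CPM of 3 counts in NCD replicate 2. Without the minimum the log2 change of Foxm1 was 4.61 (edgeR adjusted p = 0.0516).

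The share of reads not counted in genes in HFD+C2 replicate 1, 47.1%, lay above the 31.9% to 32.9% of the HFD libraries. The other HFD+C2 libraries were at 27.4% and 27.9%.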

How the results depend on the processing

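The diet comparison, with 836 genes called, gave 2418 with all 12 libraries in one fit, 2298 with DESeq2, 556 with limma-trend, 524 with a mean of at least 50 counts, 4493 with no filter and 483 with the replicate block. Leaving out 1 library gave 23 to 1838. Its 3 called members became 5 with no filter and 0 to 5 with 1 library left out. C1 against HFD, with 7 genes, gave 0 with all 12 libraries, 77 with DESeq2, 206 with no filter, 36 with the replicate block and 2 to 102 with 1 library left out; its 0 called members became 1 with no filter and 0 to 1 with 1 library left out. C2 against HFD, with 3 genes, gave 0 with all 12 libraries, 35 with DESeq2, 152 with no filter and 0 to 27 with 1 library left out, and its members called 1 with DESeq2 and 1 with no filter. C2 against C1, with 0, gave 3 with DESeq2, 162 with no filter and 0 to 1 with 1 library left out. The cause was not tested.

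Cdkn1a and Mki67 passed on the diet in all 10 settings that kept every library and in 3 and 2 of the 6 that left one out. Ccnd1 passed in 5 of 10 and 2 of 6, and Ccng1 missed with library totals alone (edgeR adjusted p = 0.0503). Ube2c passed in 7 of the 9 settings that tested it with every library, and missed with limma-trend and the replicate block. Orc1 passed in 8 of 9 and missed with limma-trend. Signs turned for several members. Mcm7 turned on the diet, to -0.0535 with upper-quartile scaling, -0.20 with library totals only and -0.0339 with a mean of at least 50 counts. With 1 library left out it was -0.0941 to 0.168, below 0 without NCD replicate 3. Pcna turned on the diet (0.0322 with no filter). Mki67 turned with C1 (-0.514 to 0.0665 with 1 library left out, above 0 without HFD replicate 1). Among other members on the diet, Aurka, Ccnb1, Ccne1, Cdc20, Cdkn2c and E2f1 turned without NCD replicate 1. Birc5, Cdk1 and Mcm4 turned with library totals only. Without HFD replicate 2, E2f8 turned for C1 (-0.68 in the main test) and for C2 (-0.57). Further signs turned for members of small change.

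Replicate numbers are shared by the groups, but deviations of same-numbered libraries correlated at only -0.09 to 0.16 over the 4 comparisons, so the numbers were not taken as pairs. With the replicate block 2 members were called on the diet, Ccnd1 having an edgeR adjusted p of 0.0574, and 0 elsewhere. Depth sets a floor for the low members: with 4281210 reads in genes, 3 counts in NCD replicate 2 stood for 0.633 CPM.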

Other observations

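Some members were set by a single library. E2f8 had 126 counts in HFD replicate 2 against 42 and 30 in the other HFD libraries, or 4.47 CPM against 1.40 and 1.22 CPM. Bub1 had 19 counts in NCD replicate 1 and at most 9 in any other library.

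Ccne2, an E-type cyclin of S phase entry under the count minimum, had 10, 14 and 9 counts with C2, 3, 4 and 2 with C1 and 5, 6 and 7 in HFD. Without the minimum the log2 difference between C2 and C1 was 1.78 (edgeR unadjusted p = 0.0158, adjusted p = 0.624).

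Mcm10, a replication initiation factor, was at 102, 65.5 and 72.3 CPM with C2 and at 49.2, 52.8 and 50.5 CPM with C1, a log2 difference of 0.65 (edgeR unadjusted p = 0.00683, adjusted p = 0.841). It was at 49.3, 68.1 and 48.3 CPM in HFD, which overlapped C2, and at 70.4, 61.8 and 74.5 CPM in NCD. Whether reads of another transcript are counted under this symbol was not tested. Phlda3, a p53 target, had 0, 2 and 5 counts in NCD and 67, 28 and 49 in HFD, and reached the count minimum only through HFD. It had an unadjusted p under 0.05 in edgeR without passing the adjusted threshold.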
